A study of Mus musculus with 5 samples.

Results

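The genes described here encode the matrix metalloproteases (Mmp), the secreted proteases with thrombospondin repeats (Adamts) and the tissue inhibitors of metalloproteases (Timp) of the mouse ovary between 2 and 6 weeks (wk) of age. Every gene whose symbol starts with Mmp, Adamts or Timp followed by a digit was taken from the gene list that all libraries share. This rule gave 45 genes of 31053, namely 22 Mmp, 19 Adamts and 4 Timp genes, and used no measured value. Of these, 25 genes had at least 500 unique molecular identifiers (UMIs, each standing for 1 captured transcript) over all cells and are named with their levels below. The other 20 genes had fewer, with 5 genes between 1 and 14 UMIs and no UMI at all for Mmp20 and Mmp1b.

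Mmp enzymes use a zinc ion to cut collagens, laminins and other matrix proteins, and most are secreted or membrane-bound precursors that another protease must activate. Adamts enzymes are secreted and have narrower substrates, among them the proteoglycans versican and aggrecan (Adamts1, Adamts4, Adamts5, Adamts9), the propeptides of fibrillar collagens (Adamts2, Adamts3, Adamts14) and the fibrillin microfibrils to which Adamts6 and Adamts10 are tied. Timp proteins bind Mmp enzymes and block them, and Timp3, which stays in the matrix, also blocks several Adamts enzymes. In the ovary these families are known for the matrix turnover of growing, ovulating and regressing follicles.

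The study followed successive waves of follicles, in which the earliest follicles of the medulla lose granulosa cells and are remodeled while theca and interstitial cells expand. Ovaries of untreated C57BL6/J mice, aged 2 to 6 wk in steps of 1 wk, were dissociated with trypsin, live cells were sorted, and 1 droplet library was made at each age. The labels do not give the number of mice behind a library, and all 5 groups share the strain, the lack of treatment and the dissociation. With 1 library an age there are no replicates, so no p-value is given: levels and ratios carry 95% intervals that cover counting error only, and an age cannot be told apart from its library.

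The libraries held 7779 to 11077 cells and 93438618 to 144609431 UMIs, with a median of 9056 to 12424 UMIs a cell, and 273 barcodes were found in more than 1 library. Of 48163 cells, 17778 were granulosa-like, 14197 stromal-like, 4166 smooth muscle-like, 960 theca-like and 859 pericyte-like. Smaller classes were 712 blood endothelial-like, 498 hematopoietic-like, 320 surface epithelial-like, 229 lymphatic endothelial-like and 91 rete ovarii-like cells, and 8353 cells stayed unnamed. Names came from marker lists that hold none of the 45 genes, and none of the 45 was among the genes used for clustering. The stromal, smooth muscle and theca classes are pooled as mesenchymal (19323 cells). Levels are given as CPM: the UMIs counted for a gene in a group of cells were summed, divided by all UMIs of those cells and multiplied by 1e6. Because free RNA enters droplets, the level in hematopoietic-like cells is given where a low level could be read as expression.

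The members of highest level were spread over different cell classes rather than gathered in a single one. Over the 10 named classes, the 25 named members had their highest level in pericytes for 5 genes, in stromal cells and in blood endothelial cells for 4 genes each, in lymphatic endothelial cells and in surface epithelial cells for 3 each, and in granulosa cells, smooth muscle cells and the rete ovarii for 2 each. Theca and hematopoietic cells led for none of the 25. For 5 of the 25 (Adamts3, Adamts7, Adamts14, Adamts16 and Timp3) the interval of the ratio to the next class includes 1, so their leading class lies within counting error. Other leads did not hold in every library with at least 50 cells of both classes. The leading class was above the next in 2 of 5 libraries for Timp1 and in 1 of 3 for Adamts17. It was above in 3 of 5 for Adamts2, Adamts10, Mmp16 and Mmp19, and in 4 of 5 for Adamts12 and Mmp17. These ranks are a description of clustered cells and were not tested, and the lymphatic endothelial, surface epithelial and rete ovarii classes reached 50 cells in only 2, 3 and 1 libraries.

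**Figure D1:**
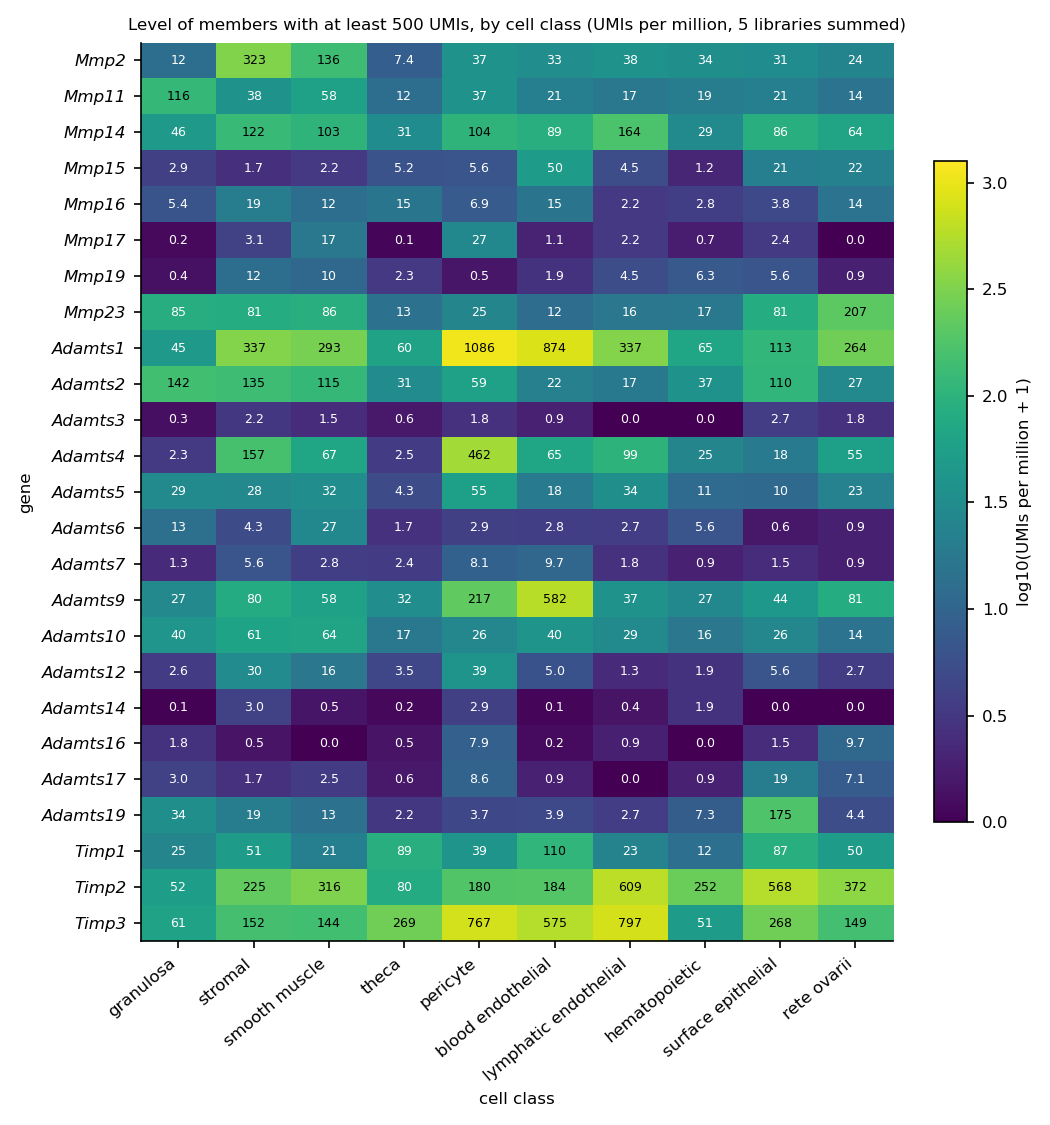
Level of the 25 members with at least 500 UMIs (rows) in the 10 cell classes (columns), with the 5 libraries summed. The CPM is printed in each cell and the colour is log10(CPM + 1), brighter for higher levels: Adamts1 and Timp3 are bright in the pericyte and blood endothelial columns, Mmp2 in the stromal and smooth muscle columns, and Mmp11 is brightest in granulosa cells.

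Proteoglycan-cutting Adamts genes had their highest levels around blood vessels. Adamts1, which cuts versican and is known from the ovulating follicle, stood in the 2, 3, 4, 5 and 6 wk libraries at 1171, 1061, 1192, 1402 and 808 CPM in pericytes. In blood endothelial cells Adamts1 was at 824, 861, 763, 1038 and 442 CPM, and in granulosa cells at 45.2, 42.6, 48.0, 58.6 and 34.8 CPM. In every library the order was thus pericytes above blood endothelial cells above granulosa cells, with no overlap between the vascular classes and granulosa cells. Adamts4, another cutter of aggrecan and versican, was at 278, 537, 795, 777 and 206 CPM in pericytes against 108, 152, 278, 259 and 80.1 CPM in stromal cells. Granulosa cells held Adamts4 at no more than 3.19 CPM in any library, below the 25.1 CPM of hematopoietic cells, so it could not be told from free RNA there. Adamts9 was led by blood endothelial cells in all 5 libraries (438, 463, 499, 749 and 201 CPM), where it was 2.68-fold (2.53 to 2.84) the pericyte level over all libraries. The 15 fixed genes of the response to dissociation followed this pattern only in part. Their summed level was lowest in granulosa cells (8094 CPM) and stood at 19490 CPM in pericytes. It was lower in blood endothelial cells (15720 CPM) than in stromal cells (18270 CPM), and highest in smooth muscle cells (23220 CPM). The part of these genes in the levels of Adamts1, Adamts4 and Adamts9 was not tested.

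Timp2 and Timp3 had their highest levels outside granulosa and theca cells. Timp3 was at 797 CPM in lymphatic endothelial cells, 767 in pericytes and 575 in blood endothelial cells, and the first of these levels did not differ from the second beyond counting error (ratio 1.04, 0.984 to 1.10). Granulosa cells held Timp3 at 49.4 to 84.5 CPM, of the order of the 50.6 CPM in hematopoietic cells. Timp2, which inhibits Mmp2 and also helps Mmp14 to activate it, was at 609 CPM in lymphatic endothelial cells, 568 in surface epithelial cells, 316 in smooth muscle cells and 225 in stromal cells. Timp2 was also at 252 CPM in hematopoietic cells, which therefore cannot serve as its background. Timp1, a soluble inhibitor of many Mmp enzymes, was at 110 CPM in blood endothelial cells, 89.2 in theca cells and 87.0 in surface epithelial cells, against 12.4 CPM in hematopoietic cells. Its blood endothelial level was above its theca level in only 2 of 5 libraries. Timp4 had 396 UMIs in all, 291 of them in granulosa cells (0.983 CPM). Its level was higher in surface epithelial cells (2.66 CPM, from 9 UMIs).

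The gelatinase Mmp2 and its activator Mmp14 shared the stroma but not to the same degree. Stromal cells held Mmp2 at 439, 362, 367, 189 and 217 CPM from 2 to 6 wk, and smooth muscle cells at 215, 194, 169, 65.0 and 79.7 CPM. After thinning each cell to 3000 UMIs, 59.0% of stromal cells (58.2 to 59.8%, exact binomial) held an Mmp2 UMI, against 3.43% of granulosa cells and 4.58% of hematopoietic cells. Without thinning the shares were 85.0%, 12.5% and 9.64%, at median depths of 9802, 15098 and 6614 UMIs. The granulosa share after thinning lies below that of hematopoietic cells, but the granulosa stages were not alike. Remodeling cells held Mmp2 at 41.0 and 18.8 CPM at 4 and 5 wk, and antral cells at 4.56 and 0.227 CPM. Of these levels, only that of remodeling cells at 5 wk was above the hematopoietic level of the same library. Mmp14, the membrane-anchored enzyme that activates Mmp2, ranged over a narrower span, from 164 CPM in lymphatic endothelial cells and 123 in stromal cells to 45.9 in granulosa cells and 28.8 in hematopoietic cells.

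Single classes also led for several members of lower level. Adamts19, whose substrates are little known, was at 175 CPM in surface epithelial cells, 5.15-fold (4.74 to 5.6) the 34.0 CPM of granulosa cells. Mmp15, a membrane-type enzyme, was at 49.6 CPM in blood endothelial cells and at or below 22.1 CPM in every other class. Mmp17, which is held in the membrane by a lipid anchor, was at 26.7 CPM in pericytes and 16.6 in smooth muscle cells, with 0.182 CPM in granulosa cells. Mmp23 was at 207 CPM in the 91 rete ovarii cells and between 76.4 and 86.4 CPM in granulosa, mesenchymal and smooth muscle cells.

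A run of 9 neighbouring Mmp genes on chromosome 9 was close to silent in most cells. In the GENCODE vM21 annotation of GRCm38, Mmp13, Mmp12, Mmp1b, Mmp3, Mmp10, Mmp8, Mmp27, Mmp20 and Mmp7 lie within 427.1 kb. Mmp13 (7272514 to 7283331, plus strand) encodes collagenase 3, Mmp12 (7344381 to 7369499, plus strand) the elastase of macrophages, and Mmp3 (7445822 to 7455975, plus strand) and Mmp10 (7502352 to 7510240, plus strand) encode stromelysins. The bases upstream of their starts are shown because of a shared letter pattern. The pattern lies before a listed start of 7 of the 9 genes, and of no member outside the cluster with a listed start. Sequences are from RefSeq on GRCm38.p6, plus strand, 120 bases that end just before the start, in lower case with the AP-1 motif TGANTCA in capitals.
Mmp13 (chr9:7272394-7272513): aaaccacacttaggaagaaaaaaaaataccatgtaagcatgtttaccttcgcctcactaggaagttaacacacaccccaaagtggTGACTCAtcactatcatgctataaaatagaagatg
Mmp12, second listed start (chr9:7347254-7347373): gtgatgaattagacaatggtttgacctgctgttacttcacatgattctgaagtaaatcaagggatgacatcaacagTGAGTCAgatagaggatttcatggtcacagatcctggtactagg
Mmp3 (chr9:7445702-7445821): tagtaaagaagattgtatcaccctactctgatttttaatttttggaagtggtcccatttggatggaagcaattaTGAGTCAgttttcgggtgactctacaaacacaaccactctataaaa
Mmp10 (chr9:7502222-7502341): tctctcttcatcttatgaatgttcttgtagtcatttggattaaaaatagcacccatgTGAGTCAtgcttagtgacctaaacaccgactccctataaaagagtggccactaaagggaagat
The motif begins 35, 44, 46 and 63 bases before these starts, and the first listed start of Mmp12 has none. Searched on both strands in the 250 bases before a start, TGANTCA was in 7 of the 9 genes of the cluster, in 0 of the 22 other members with a listed start, and in 2217 of all 32851 promoters (6.75%). A match is a description of the letters and not a bound site.

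The UMIs of this cluster came from few cells of few kinds. Mmp13 had 330 UMIs, with 0 at 2 and 3 wk, 7 at 4 wk, 143 at 5 wk and 180 at 6 wk, and 319 of them lay in hematopoietic cells. The libraries held 51, 50, 85, 182 and 130 hematopoietic cells from 2 to 6 wk, so the early counts rest on few such cells. Only 40 cells held Mmp13, and a single cell held 68 UMIs. Of the 31 hematopoietic cells with Mmp13, 30 held the macrophage gene C1qa, 30 Csf1r and 29 Adgre1, while none held the T cell gene Cd3e. Among all 498 hematopoietic cells, 229 held C1qa, 238 Csf1r, 196 Adgre1 and 63 Cd3e. Mmp12 had 163 UMIs in 19 cells, 154 of them from the 5 wk library and 86 from 1 cell, and 11 of its 14 hematopoietic cells held C1qa. Mmp12 and Mmp13 were found together in 2 cells. Mmp3 was found in another place: 125 of its 133 UMIs lay in fibroblast-like cells marked by Col14a1, and 38 cells held it. Mmp10 had 2 UMIs, and Mmp7, Mmp8 and Mmp27 had 8, 5 and 14. Mmp9, a gelatinase of leukocytes on another chromosome, had 302 UMIs, of which 175 lay in smooth muscle cells and 72 in hematopoietic cells. Its level was nonetheless the higher in hematopoietic cells (16.9 against 4.2 CPM over all libraries, and above in 4 of 5 libraries).

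The first comparison asked where the members are transcribed, in the mesenchyme or in the follicle's granulosa cells. Mesenchymal cells had the higher level for 16 of the 32 members that reached 50 UMIs over both groups, by at least 2-fold in each of the 5 libraries, where 10.9% of all 16642 genes counted passed. Granulosa cells had the higher level for 2 members (7.3% of all genes), 14 members passed in neither direction and 13 were too low to compare. The median log2 ratio of the 32 members was 1.87, against -0.15 for all genes. Since the members that are compared had to reach 50 UMIs and the groups are clusters, these counts describe the members and are no test. The 16 members were Adamts1, Adamts3, Adamts4, Adamts7, Adamts8, Adamts12, Adamts14, Adamts15, Adamts20, Mmp2, Mmp9, Mmp16, Mmp17, Mmp19, Mmp25 and Timp2.

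The widest gaps were those of Adamts4, Adamts14, Mmp17, Mmp2, Mmp19 and Adamts8. Mesenchymal cells held Adamts4 at 97.3, 130, 222, 161 and 69.9 CPM from 2 to 6 wk, a median of 51.4-fold (34.0 to 112 over the libraries) the granulosa level. Mmp2 was at 395, 315, 300, 118 and 180 CPM against 14.6, 8.76, 20.4, 8.86 and 6.44 CPM, a median of 27.0-fold (13.4 to 35.9). Since these levels over all granulosa cells lie below the Mmp2 level of hematopoietic cells (11.7 to 70.1 CPM), its ratio rests on a denominator that, as a whole, could not be told from free RNA. Remodeling granulosa cells alone held Mmp2 at 8.94, 16.6, 41.0, 18.8 and 9.07 CPM from 2 to 6 wk. Only at 5 wk was this above the hematopoietic level of the same library (11.7 CPM), so at the other ages it could not be told from free RNA. Adamts14, which trims procollagen, had 3.25, 2.32, 2.17, 1.76 and 1.63 CPM in mesenchymal cells and at most 0.0802 CPM in granulosa cells, a median of 36.6-fold. Mmp17 had 3.55, 4.58, 5.38, 5.24 and 7.86 CPM against at most 0.214 CPM (31.0-fold). Mmp19, a secreted enzyme with broad substrates, had 13.3, 11.0, 10.4, 13.7 and 6.19 CPM against at most 0.548 CPM (25.9-fold). For Adamts8 the mesenchymal level was 1.95, 1.29, 0.849, 0.308 and 0.269 CPM and granulosa cells held 7 UMIs in all (20.4-fold, with counts under 3 set to 3). No library overlapped between the groups for these 6 genes, but they were picked for the widest gaps, so this adds no support.

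The members with the opposite direction were rare transcripts. Adamts16 was at 4.21, 1.35, 1.04, 1.42 and 1.34 CPM in granulosa cells and 1.01, 0.211, 0.283, 0.0220 and 0.211 CPM in mesenchymal cells. Timp4 was at 0.662, 0.759, 1.27, 0.913 and 1.12 CPM against 0.213, 0.342, 0.440, 0.0881 and 0.422 CPM. Over all libraries Mmp11 (stromelysin 3) and Adamts2 led in granulosa cells without passing 2-fold throughout, and Adamts2 was above its stromal level in 3 of 5 libraries. Of 33 comparable partner genes (substrates, activators and relatives of the members, from a list of 35), 17 were higher in mesenchymal cells, among them Col1a1 (86.0-fold), Fn1 (26.0-fold) and the membrane inhibitor Reck (7.18-fold), and Sdc4 was lower.

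**Figure D2:**
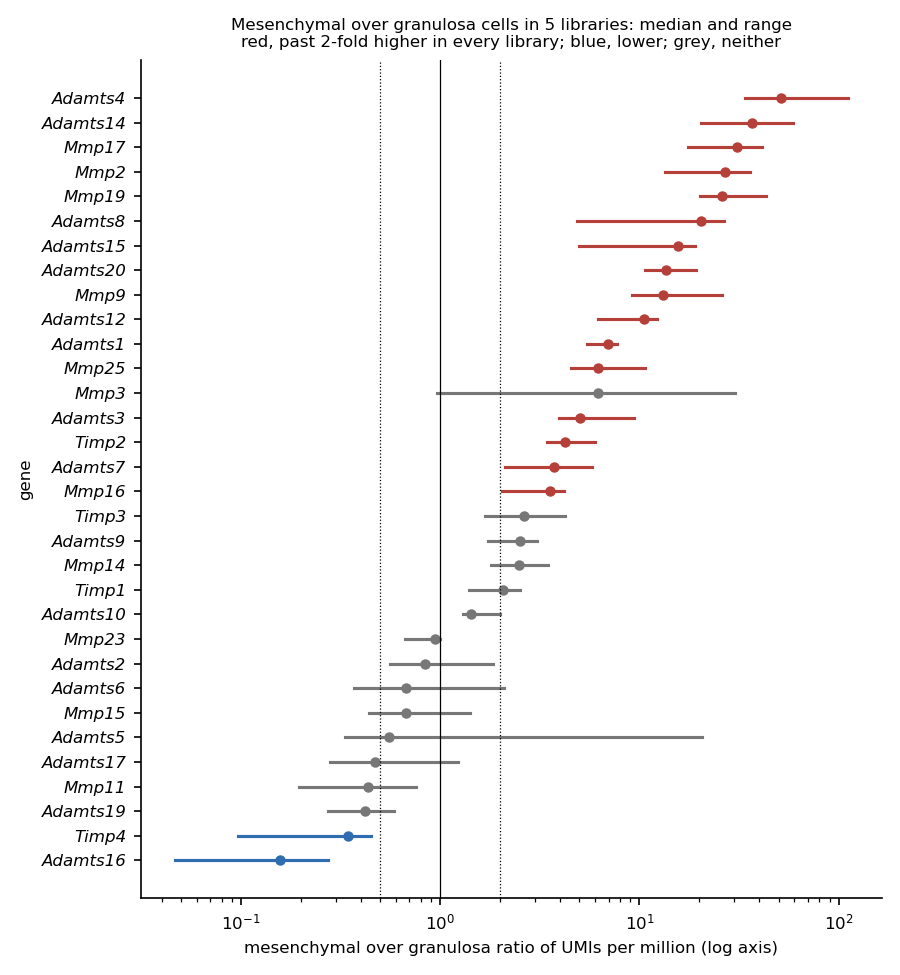
Ratio of mesenchymal to granulosa level (log axis) for the 32 members with at least 50 UMIs, with a point at the median and a line over the range of the 5 libraries, and counts under 3 UMIs set to 3. In all, 16 members (red) have their whole range above 2-fold, Adamts16 and Timp4 (blue) have it below 0.5, and the others are grey.

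Among granulosa stages, Mmp11 separated the remodeling branch from the antral branch. Remodeling cells (3523 cells) were named only from markers (Cald1, Clu, Agt, Ghr and others). Antral cells (1676 cells) are a single cluster led by Inhba, Cyp11a1 and Cyp19a1. Whether the remodeling cells came from follicles that were being remodeled was not tested. In antral cells the study reports less Cald1, Ghr and Mmp11 for its earliest wave of follicles than for the later one. These genes are therefore not specific to remodeling. Mmp11, an enzyme that furin activates inside the cell, was at 97.5, 122, 345, 420 and 314 CPM in remodeling cells from 2 to 6 wk. Antral cells held Mmp11 at 31.4, 27.6, 111, 89.8 and 59.5 CPM, and preantral cells at 46.4, 37.8, 84.9, 67.2 and 59.1 CPM. In each library the remodeling level was the higher, by a median of 4.40-fold over antral cells (3.1 to 5.28). Primordial cells held an intermediate 140, 86.0, 158, 160 and 157 CPM, above the remodeling level at 2 wk and below it at the other ages.

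Mmp11 was the 1 member of 21 compared that was at least 2-fold higher in remodeling than in antral cells in all libraries, where 1.47% of all genes passed, and none was lower throughout (0.493% of all genes). The median log2 ratio was 0.51 for the members and 0.07 for all genes. Thinned to 3000 UMIs a cell, 52.6% of remodeling cells held Mmp11 (50.9 to 54.3%), against 16.6% of antral, 15.8% of preantral, 30.2% of primordial and 4.31% of hematopoietic cells. Without thinning these shares were 82.9%, 53.4%, 45.5%, 62.1% and 7.03%. At 2 and 3 wk most of the 98 and 127 remodeling cells came from other clusters than at 4 to 6 wk. A cluster of 1954 granulosa cells led by Smim5, Cda, Pid1 and the antral marker Vpreb3 stayed unnamed, since it also carried 9 remodeling markers. It was counted neither as antral nor as remodeling, and held Mmp11 at 164 CPM, against 70.8 CPM in the antral cells compared. When a coarser clustering joined it to the remodeling cells, the Mmp11 ratio no longer passed 2-fold in every library. Of 24 partner genes, Sdc4 (2.51-fold), Fbn1 (2.53-fold) and the proteoglycan Bgn (5.83-fold) were higher in remodeling cells and none was lower.

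Adamts5, the aggrecan-cutting enzyme encoded next to Adamts1 on chromosome 16, had a different course. Remodeling cells held it at 4.47 and 5.53 CPM at 2 and 3 wk and at 84.8, 77.4 and 152 CPM at 4, 5 and 6 wk. Antral cells were at 14.1, 14.9, 20.1, 30.9 and 37.5 CPM, so the remodeling level was the lower at the first 2 ages and the higher at the last 3. Within the remodeling cells, the cluster of 1231 cells held Adamts5 at 202 CPM and that of 641 cells at 152 CPM, while those of 1052 and 599 cells held 15.5 and 8.66 CPM. The last 2 clusters had the higher Mmp11 levels (424 and 483 CPM against 325 and 93.6 CPM). The lowest of these, 93.6 CPM, lay within the Mmp11 range of antral cells over the libraries (27.6 to 111 CPM).

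**Figure D3:**
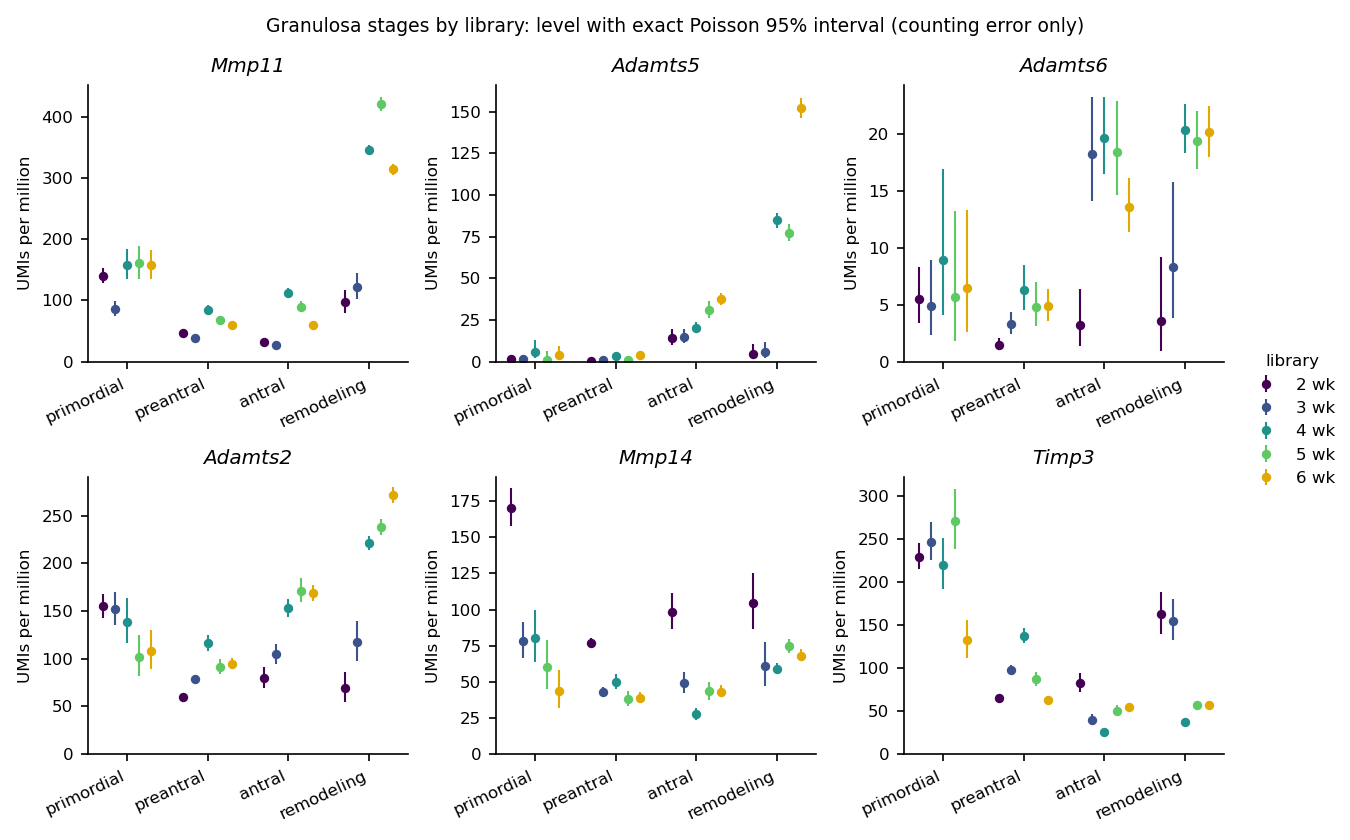
Level (CPM, linear axis) of Mmp11, Adamts5, Adamts6, Adamts2, Mmp14 and Timp3 in primordial, preantral, antral and remodeling granulosa cells, 1 point for each age, with exact Poisson 95% intervals. Mmp11 points of remodeling cells (97.5 to 420 CPM) lie above the antral point of the same age, and Adamts5 points of preantral cells stay at or below 4.18 CPM.

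Antral and preantral cells differed most in Adamts5. Preantral cells, 4499 cells in which primary and secondary follicles could not be separated, held Adamts5 at 0.679, 0.911, 3.23, 1.07 and 4.18 CPM, below the 11.2 CPM of hematopoietic cells. Antral cells exceeded this by a median of 16.4-fold (6.22 to 28.9). Adamts6 was also higher in antral cells, at 3.22, 18.2, 19.7, 18.4 and 13.6 CPM against 1.49, 3.32, 6.32, 4.81 and 4.84 CPM (3.11-fold). At most ages the preantral Adamts6 level lay below the 5.62 CPM of hematopoietic cells over all libraries. Adamts5 and Adamts6 were 2 of 22 members compared, where 1.35% of all genes passed. Lower by at least 2-fold in all libraries were 3 members (2.48% of all genes). Adamts17 was at 10.2, 5.40, 7.05, 10.2 and 9.02 CPM in preantral cells and at most 0.909 CPM in antral cells (ratio 0.0896). Adamts16 was at 4.20, 2.34, 2.50, 2.85 and 3.70 CPM in preantral cells and at most 0.804 CPM in antral cells (0.285). Mmp2 was lower in antral cells too (0.211), with both levels under that of hematopoietic cells. Of 24 partner genes the proprotein convertase Pcsk6 (0.0678) and Sdc4 (0.268) were lower in antral cells.

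Primordial granulosa cells differed from preantral cells by smaller steps in several members. None of 21 members passed 2-fold in all libraries in either direction, where 2.34% of all genes were higher and 0.356% lower. Timp3 was at 230, 247, 220, 272 and 132 CPM in primordial cells and 65.2, 98.0, 138, 87.1 and 62.7 CPM in preantral cells, a median of 2.52-fold with 1 library at 1.60-fold. Primordial levels were above preantral levels in all 5 libraries also for Timp1 (median 1.72-fold), Timp2 (1.82-fold), Mmp11 (2.39-fold), Mmp14 (1.61-fold) and Adamts1 (3.45-fold). The same held for Adamts2, Adamts6, Adamts9 and Adamts10. How many of all genes were above in every library was not counted, so this list is a description only. Adamts1 was at 59.5, 84.0, 112, 226 and 86.1 CPM in primordial cells against 33.3, 33.5, 32.5, 38.3 and 11.5 CPM. The summed dissociation-response genes were at 13753 CPM in primordial and 6993 CPM in preantral cells, and their part in the Adamts1 difference was not tested. Among 25 partner genes, Reck, Bcan, Fbn1 and Bgn were higher in primordial cells and versican (Vcan) was lower (0.299).

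Within the mesenchyme, late theca cells held few protease transcripts. These 1436 steroidogenic cells, marked by Cyp11a1 and Cyp17a1, had 12 of 32 members at least 2-fold lower than other mesenchymal cells in all libraries (5.48% of all genes) and none higher (1.91%). The median log2 ratio was -1.16 for the members and 0.08 for all genes. The summed Mmp level was 124 CPM in late theca, against 426 to 1137 CPM in the 8 other subtypes, while the summed Timp level of 379 CPM lay within their range of 330 to 954 CPM. The 12 lower members were Adamts1, Adamts2, Adamts4, Adamts5, Adamts6, Adamts10, Adamts12, Adamts19, Mmp2, Mmp17, Mmp23 and Timp2.

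Several of these levels were at background in late theca. Late theca held Mmp2 at 103, 44.6, 43.1, 7.64 and 40.6 CPM, a median ratio of 0.130 to other mesenchymal cells, and only at 2, 3 and 6 wk was this above the Mmp2 level of hematopoietic cells in the same library (69.0, 25.2, 70.1, 11.7 and 20.8 CPM). Adamts19 was at 9.22, 1.38, 1.11, 0.151 and 2.43 CPM (0.0973), Adamts6 at 0.801, 1.10, 0.834, 1.29 and 0.694 CPM (0.106) and Adamts5 at 4.81, 1.65, 3.61, 3.03 and 5.20 CPM (0.127). The level of Mmp17 did not exceed 0.347 CPM (0.138). Adamts4 was at 15.2, 9.37, 38.1, 6.20 and 11.4 CPM (0.151). Timp1 and Timp3 did not pass in either direction, and Timp1 was at 70.9, 63.1, 66.7, 91.5 and 54.4 CPM in late theca. Partner genes that were lower throughout were Adamtsl1, Adamtsl2, Vcan, Col1a1, Bgn and Tnfaip6, 6 of 31.

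Contractile cells marked by Tagln (4045 cells) differed from other mesenchymal cells in another group of members. Compared with other mesenchymal cells, 4 of 32 members were at least 2-fold higher in all libraries (2.56% of all genes) and 1 was lower (4.13%). Mmp9 was at 6.08, 3.37, 3.21, 4.11 and 4.20 CPM, a median of 36.0-fold, and 171 of all 302 Mmp9 UMIs lay in these cells. This ratio rests on few UMIs in other mesenchymal cells (the whole stromal class held 15). At a minimum of 200 UMIs Mmp9 was not among the higher members. Mmp17 was at 13.1, 16.5, 15.5, 19.2 and 18.6 CPM (6.86-fold), and Adamts6 at 20.4, 14.8, 22.8, 41.6 and 30.1 CPM (6.33-fold). Adamts8 was at 5.59, 4.21, 2.36, 1.37 and 0.685 CPM (4.70-fold), each library lower than the one before in age. Adamts8 was not particular to contractile cells. Over all libraries its level was higher in Col14a1-marked cells (30 UMIs in 746 cells, against 104 UMIs in contractile cells). Adamts14 was the lower member (0.193), at no more than 0.843 CPM. These cells were not uniform: a cluster of 279 cells led by Pcp4 held Adamts8 at 13.1 CPM, and one of 2042 cells led by Ednrb held it at 0.373 CPM, while Adamts6 was at 11.4 and 29.3 CPM in the same clusters.

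Fibroblast-like cells marked by Col14a1 had the highest summed levels of all 3 families among the mesenchymal subtypes (Mmp 1137, Adamts 1793 and Timp 954 CPM). The 6 wk library held 44 of these 746 cells and was left out of the comparison. In each of the 4 other libraries 7 of 31 members were at least 2-fold higher than in other mesenchymal cells (3.93% of all genes), and none was lower (2.36%). From 2 to 5 wk Timp2 was at 715, 713, 729 and 832 CPM (3.51-fold), Adamts2, which trims procollagen, at 449, 417, 510 and 394 CPM (3.83-fold), and Mmp23 at 296, 270, 330 and 276 CPM (4.02-fold). Mmp19 was at 51.4, 59.0, 73.2 and 108 CPM (7.65-fold), Adamts5 at 234, 53.7, 79.7 and 82.2 CPM (5.08-fold), Adamts17 at 11.4, 12.6, 9.27 and 3.42 CPM (6.01-fold) and Adamts15 at 19.4, 3.98, 6.49 and 18.5 CPM (12.2-fold). Of 31 partner genes 11 were higher and none lower, among them the Adamts-like genes Adamtsl1 (23.7-fold) and Adamtsl5 (31.4-fold), Col3a1 (8.75-fold) and the hyaluronan-binding Tnfaip6 (11.9-fold). The dissociation-response genes summed to 24281 CPM here, within the 12352 to 26627 CPM of the mesenchymal subtypes.

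**Figure D4:**
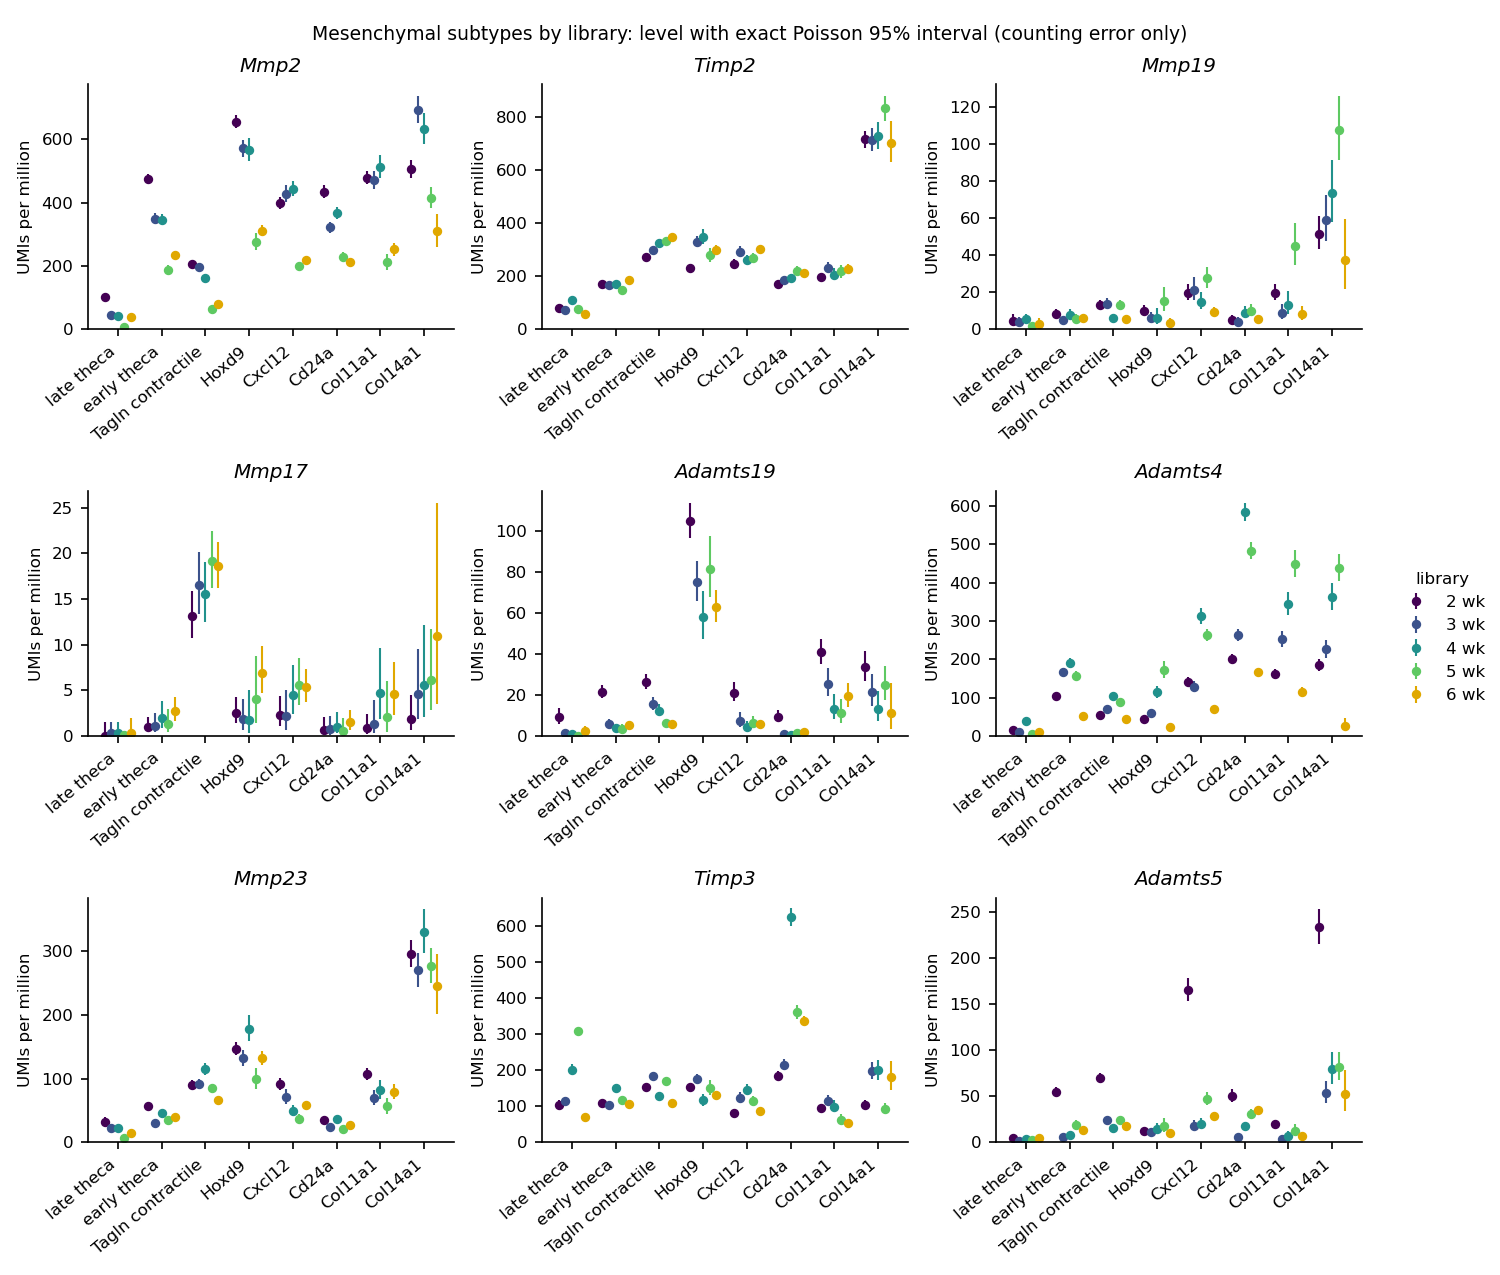
Level (CPM, linear axis) of 9 members in the mesenchymal subtypes, 1 panel per gene and 1 point for each library, the 6 wk Col14a1 point with 44 cells included, with exact Poisson 95% intervals. Col14a1 cells stand highest for Timp2 and Mmp19, Tagln contractile cells for Mmp17, and late theca cells lowest for Mmp2.

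The other subtypes differed in few members. Cells marked by Hoxd9 (2351 cells) had Adamts19 higher, at 105, 74.9, 57.9, 81.4 and 62.9 CPM (7.74-fold, the only member of 32 that passed as higher, with 1.28% of all genes) and none lower (2.33%). Cells marked by Cd24a (1647 cells) had Adamts4 higher, at 200, 264, 585, 484 and 167 CPM (2.92-fold, 1 of 32 members with 0.92% of all genes), and 4 members lower, Adamts6, Adamts19, Mmp17 and Mmp23 (3.25% of all genes). Early theca cells (1899 cells) had Adamts6 and Mmp17 lower, 2 of 32 members with 3.07% of all genes, and none higher (0.0336%), and held Mmp2 at 475, 350, 346, 188 and 235 CPM. Thus early theca and late theca did not overlap in Mmp2 at any age. Cells marked by Cxcl12 had none of 32 members past 2-fold higher (0.201% of all genes) or lower (2.13%), and neither had cells marked by Col11a1 (0.094% and 1.91%). Mitotic mesenchymal cells had Adamts6 and Mmp19 lower (1.3% of all genes) and none higher (3.85%).

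Between 2 and 6 wk, the largest step in granulosa cells was that of Adamts5. Each ratio of 5 or 6 wk to 2 wk given here and below also spans a change of the counting software, so it cannot tell age from processing. Over all granulosa cells Adamts5 was at 2.81, 4.39, 35.5, 34.2 and 55.0 CPM from 2 to 6 wk, and the 6 wk level was 19.5-fold that at 2 wk (16.6 to 23.1). Adamts6 was at 3.01, 8.59, 19.1, 17.2 and 15 CPM (4.98-fold), Mmp11 at 48.0, 36.0, 168, 182 and 125 CPM (2.60-fold) and Adamts2 at 80.3, 102, 171, 168 and 169 CPM (2.11-fold). At 2 wk Adamts5 and Adamts6 lay below their hematopoietic levels over all libraries, so these 2 denominators could not be told from free RNA. For all 4 genes the step lay mostly between 2 and 4 wk. They were 4 of 22 members compared, with 6.62% of all genes past 2-fold upward, and 6 members were past 2-fold downward (6.96%). Of the latter, Adamts17 was at 7.44, 2.66, 1.38, 2.51 and 2.00 CPM (0.269), Mmp16 at 12.8, 4.28, 3.08, 3.93 and 3.77 CPM (0.295) and Adamts16 at 0.318 of its 2 wk level. Mmp14 (79.4, 39.3, 35.7, 42.5 and 37.9 CPM), Adamts19 (56.3, 37.7, 26.8, 27.4 and 26.7 CPM) and Mmp2 made up the rest. The libraries held 98 remodeling and 321 primordial cells at 2 wk and 1043 and 81 at 6 wk, and the part of this shift in the ratios over all granulosa cells was not tested.

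Inside single granulosa stages the steps went in both directions. The study assigns antral cells at 2 wk and 5 wk to different follicle waves, using all of its antral clusters, while antral cells here are a single, narrower cluster. In this cluster 4 of 13 members were past 2-fold higher at 5 wk (3.79% of all genes). These were Adamts6 (18.4 against 3.22 CPM, 5.72-fold, 2.77 to 13.7), Mmp11 (89.8 against 31.4 CPM, 2.86-fold, 2.24 to 3.70), Adamts5 (30.9 against 14.1 CPM, 2.20-fold, 1.51 to 3.28) and Adamts2 (171 against 79.6 CPM, 2.15-fold, 1.84 to 2.53). The 2 wk level of Adamts6 lay below the 5.62 CPM of hematopoietic cells over all libraries. Mmp14 was lower (43.4 against 98.1 CPM, 0.443, 0.364 to 0.537), the 1 member past 2-fold in that direction (3.46% of all genes). Of 16 partner genes, Pcsk5 and Lrp1 were higher and Pcsk6, Vcan, Col1a2 and Col3a1 lower. At 6 wk antral cells held Adamts2, Adamts5 and Adamts6 at more than 2-fold their 2 wk level, 3 of 13 members (5.44% of all genes), and Mmp14 was again lower (3.35%), while Mmp11 did not pass (59.5 against 31.4 CPM, 1.90-fold, 1.49 to 2.43). In remodeling cells the 6 wk level exceeded that at 2 wk for 4 of 17 members (8.31% of all genes), again Adamts2, Adamts5, Adamts6 and Mmp11, and was lower for 6 (5.81%), namely Adamts1, Adamts9, Adamts19, Mmp15, Mmp16 and Timp3. The largest was Adamts5 (34.1-fold, 14.6 to 105), though its 2 wk value rests on 5 UMIs and on other clusters than its 6 wk value. In preantral cells Adamts5 (6.16-fold) and Adamts6 (3.26-fold) were past 2-fold higher at 6 wk, 2 of 19 members (2.6% of all genes), and Adamts1 (0.345) and Mmp16 (0.374) were lower (2.73%). Preantral Adamts5 and Adamts6 lay below their hematopoietic levels over all libraries at both ages, so neither could be told from free RNA. In primordial cells none of 13 members was past 2-fold higher at 6 wk (2.3% of all genes), and Adamts19 (0.444), Mmp14 (0.255) and Mmp16 (0.211) were lower (6.66%). Adamts2 in primordial cells was at 155 CPM at 2 wk and 108 CPM at 6 wk, and Mmp11 at 140 and 157 CPM.

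In stromal cells most members past 2-fold were lower at the later age. Between 2 and 6 wk, 11 of 28 members were past 2-fold lower (6.3% of all genes) and Mmp17 alone was higher (4.12% of all genes; 2.56-fold, 1.97 to 3.35). The median log2 ratio was -0.52 for the members and -0.01 for all genes. Subtype numbers also shifted: the libraries held 224 Col14a1-marked and 392 Cxcl12-marked cells at 2 wk, and 44 and 862 at 6 wk. Of the lower members, Adamts5, Adamts15, Adamts17 and Mmp19 were past 2-fold higher in Col14a1-marked cells than in other mesenchymal cells. The part of this shift in the stromal ratios was not tested. Without integration of the libraries Mmp11 was past 2-fold higher and Mmp17 was not (log2 ratio 0.99). Adamts5 was at 56.0, 10.1, 15, 24.1 and 18.6 CPM (0.333, 0.306 to 0.362), with the largest step between 2 and 3 wk. A step of the same direction was seen in Col14a1 cells (234 to 53.7 CPM), in Cxcl12-marked cells (166 to 18.2 CPM) and in early theca cells (55.0 to 5.51 CPM), but not in Hoxd9-marked cells (12.1 and 10.9 CPM). Mmp2 was at 0.495 of its 2 wk level (0.482 to 0.508), with a step between 4 wk (367 CPM) and 5 wk (189 CPM). The software version that counted the reads also changed between the 4 and 5 wk libraries, and Mmp2 in hematopoietic cells went from 70.1 to 11.7 CPM, so age and processing cannot be told apart for this step. Mmp2 was no longer past 2-fold lower without integration (log2 ratio -0.81), at resolution 0.6, or with mitochondrial and ribosomal protein genes left out of the total (-0.99). Adamts9 was at 101, 94.0, 83.7, 88.1 and 37.3 CPM (0.371) and Adamts19 at 34.7, 17.4, 10.4, 10.7 and 12.8 CPM (0.370). The smallest ratios were those of Adamts8 (0.112), Adamts16 (0.234) and Adamts17 (0.242), all under 3 CPM at 2 wk. Adamts3, Adamts15, Adamts20 and Mmp19 were the remaining members that were lower. Of 30 partner genes 7 were lower and none higher, among them Vcan (0.402), Hapln1 (0.179) and Tnfaip6 (0.138).

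Adamts5 and Adamts9 were also lower at 6 wk in smooth muscle cells and pericytes. In smooth muscle cells 9 of 23 members were past 2-fold lower at 6 wk (6.28% of all genes) and Mmp11 was higher (2.32-fold, 2.62% of all genes), while in pericytes Adamts5 (0.268) and Adamts9 (0.286) were lower, 2 of 15 members with 3.66% of all genes, and none was higher (4.23%). Adamts5 in smooth muscle cells was at 75.7, 23.7, 15.3, 24.2 and 18.2 CPM. In blood endothelial cells, where the 5 wk library was set against 2 wk, Timp1 was higher (135 against 37.9 CPM, 3.57-fold, 1 of 15 members with 4.23% of all genes), and Mmp2, Mmp23 and Adamts2 were lower (4.21% of all genes), each at 5 wk at or below 16.5 CPM.

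**Figure D5:**
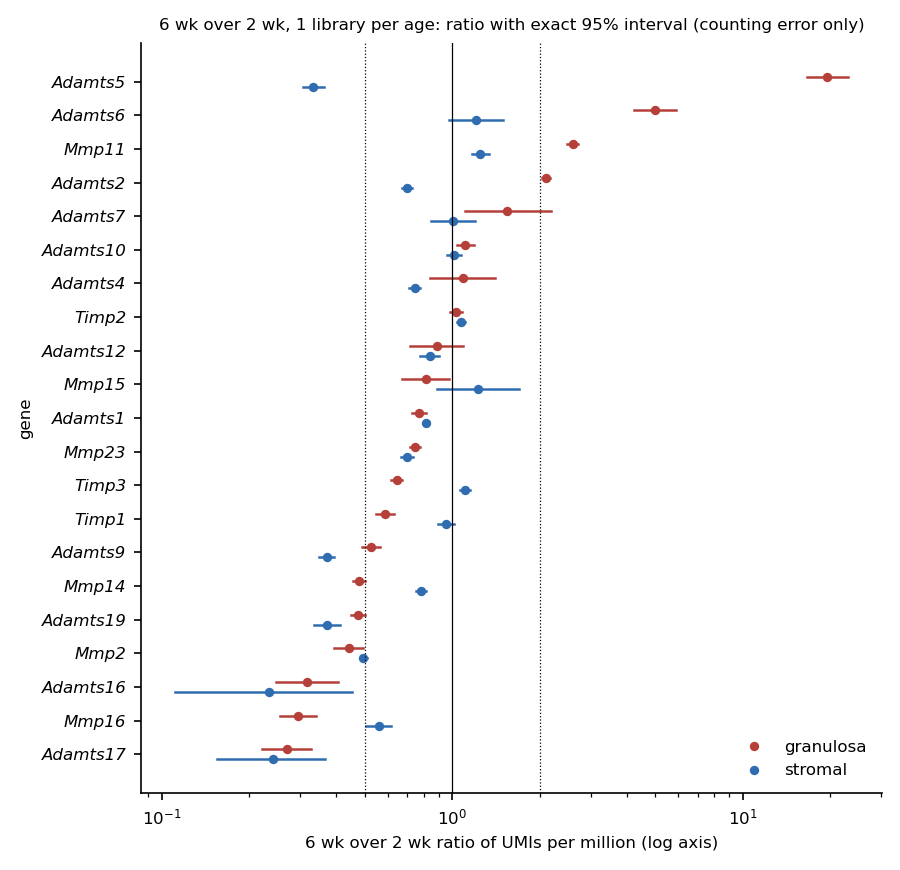
Ratio of the level at 6 wk to that at 2 wk (log axis) in granulosa (red) and stromal (blue) cells for the 21 members with at least 50 UMIs in both comparisons, with exact conditional 95% intervals and dotted lines at 0.5 and 2. Adamts5 lies at 19.5-fold in granulosa cells, where its 2 wk level is below that of hematopoietic cells, and at 0.333 in stromal cells.

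Late theca cells held more Timp3 and less of 8 protease genes at 5 wk than at 2 wk, and these differences depended on how the cells were clustered. Timp3 was at 103, 115, 201, 310 and 70.7 CPM from 2 to 6 wk, 3.00-fold higher at 5 wk than at 2 wk (2.64 to 3.41) while the 6 wk level was 0.228 of that at 5 wk. It was the 1 of 16 members past 2-fold upward (9.29% of all genes), and 8 were past 2-fold downward (8.36%). Mmp2 had the widest step (0.0742, 0.0583 to 0.0937). Its level in hematopoietic cells went from 69.0 to 11.7 CPM between the same libraries, and most of the late theca step lay between 4 wk (43.1 CPM) and 5 wk (7.64 CPM), where the counting software also changed, so age and processing cannot be told apart for it either. It was followed by Mmp23 at 32.1, 23.1, 22.5, 7.41 and 14.6 CPM (0.231), Adamts12 at 11.2, 9.92, 10.6, 3.03 and 11.1 CPM (0.270), Mmp14 at 74.1, 48.8, 50.3, 26.0 and 66.6 CPM (0.351), Mmp11 (0.389) and Adamts4 (0.407). Adamts2 (0.436) and Adamts10 (0.464) made up the rest. Adamts4 and Mmp11 lay below their hematopoietic levels over all libraries at both ages, so their steps could not be told from free RNA. At 5 wk Mmp14 also lay below its hematopoietic level (28.8 CPM). From 5 to 6 wk Adamts12, Mmp2, Mmp11 and Mmp14 were past 2-fold higher, 4 of 16 members (7.79% of all genes), and Timp3 was lower (10.4%). Of 23 partner genes 11 were lower, most of them structural matrix genes such as Col1a1 (0.0737) and Fn1 (0.246), and 2 were higher, Sdc4 (2.38-fold) and Bcan.

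Composition moved with these ratios. A cluster led by Cyp11a1 held 60 of the 151 late theca cells at 2 wk and 481 of the 593 at 5 wk, and a cluster led by Cpa1 held the others. Over all ages the cluster led by Cyp11a1 held Timp3 at 288 CPM and Mmp2 at 6.37 CPM, and the other held 94.6 and 75.9 CPM. Within the cluster led by Cyp11a1 the 5 wk level was still 2.58-fold higher for Timp3 (2.19 to 3.06) and lower for Mmp2 (0.138, 0.0813 to 0.239) and Mmp14 (0.343, 0.262 to 0.456). Adamts1 was also higher there, by 2.1-fold (1.47 to 3.12), and Adamts2 (0.475) and Mmp23 (0.333) were lower. For Mmp11 the ratio was 1.07-fold (0.390 to 4.12), an interval that includes 1. When the libraries were clustered without integration, none of the 8 members was past 2-fold lower in late theca at 5 wk, Timp3 was not past 2-fold higher (log2 ratio 0.33), and the members past 2-fold higher were Adamts1 and Adamts4. The ratios of Adamts4, Adamts10, Mmp11 and Mmp23 turned upward.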

How the data were processed

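Per the file headers, the authors made the deposited UMI counts per gene and cell with Cell Ranger 3.1.0 (2, 3 and 4 wk) or 6.0.1 (5 and 6 wk) on mm10 from 10x 3′ libraries; the labels also name Seurat 4.1.0. The deposited counts were not normalized. The study's methods state default settings, under which reads on the sense strand of a gene are counted, so an overlap with a gene on the same strand (Timp2) leaves its counts uncertain.

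All deposited cells were kept, and cells that Scrublet (scanpy 1.11.5) called doublets were left out only as an alternative. Cells were clustered in Seurat 5.3.0 (R 4.3.3) with CCA integration, 2000 variable genes without the 45 members, 30 principal components and resolution 1, and granulosa and mesenchymal cells were clustered again by themselves. Clusters were named from fixed markers. No germ cell cluster was found. Primary and secondary granulosa cells could not be separated and are called preantral, which takes the place of secondary cells in the planned comparisons. UMIs were summed by group and library. A member was counted as higher or lower where the CPM ratio passed 2-fold in the same direction in every library with at least 50 cells in both groups, with over 3 UMIs in the higher group; counts under 3 UMIs were set to 3, and genes needed 50 UMIs over both groups. Ages were compared by the ratio of 2 libraries. Intervals are exact (Poisson for levels, conditional binomial for ratios, Clopper-Pearson for shares) at 95% and cover counting error only. Members named were those with at least 500 UMIs and those passing in a comparison, with values by library for up to 6 in each direction. Counts were also simulated with counting error only, with 200 genes changed 4-fold or 0.25-fold. All 200 fell on the right side of 1 for remodeling over antral cells at 5 wk (10571 genes). The same held for mesenchymal over granulosa cells at 5 wk (13935 genes), and 196 of 200 did for late theca at 5 wk over 2 wk (10347 genes). Changes of 2-fold and differences between libraries or clusterings were not simulated, so this checks the interval calculation and not the calls. The members, gene lists and comparisons were chosen with earlier results of these data known.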

Additional observations from a re-analysis of the deposited data

Results flagged for a closer look

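Some members moved past 2-fold in opposite directions in different cell types between the same ages. The differences between cell types were not tested, since there is 1 library an age. Adamts5 at 6 wk was 19.5-fold its 2 wk level in granulosa cells, and 0.333 of it in stromal cells, 0.241 in smooth muscle cells and 0.268 in pericytes. In granulosa cells the 2 wk level of Adamts5 lay below its hematopoietic level, so this denominator could not be told from free RNA. Adamts2 at 5 wk was 2.15-fold its 2 wk level in antral granulosa cells, and 0.436 of it in late theca and 0.477 in blood endothelial cells. In late theca and blood endothelial cells Adamts2 lay near or under the 37.0 CPM of hematopoietic cells (27.5 CPM in late theca, 21.7 CPM in blood endothelial cells). Mmp11 at 5 wk was 2.86-fold its 2 wk level in antral granulosa cells and 0.389 of it in late theca, where it was at 13.2 and 5.14 CPM at these ages, below the 19.0 CPM of hematopoietic cells.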

How the results depend on the processing

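No paired analysis was possible because each age has 1 library and the labels give no replicate numbers shared across ages. Of 292 counts of members over the alternatives to the 11 planned comparisons, 262 stayed within 1.5 times the reported count, and of 1078 ratios of single members 1043 moved by less than the spread between libraries or their interval, 30 moved by more and 5 changed direction. All 5 were in late theca between 2 and 5 wk. For remodeling over antral cells the count of higher members was 0 at resolution 0.6, 2 at resolution 1.5 (Mmp2 and Mmp11), 2 without integration and 5 with RPCA integration that kept the members (with 1 lower, Timp4). Leaving out 1 library gave 1 to 3 higher members, with 3 without the 2 wk library and 2 without the 5 wk library. With only the 4, 5 and 6 wk libraries, an alternative chosen after seeing the data, it was 4 (Adamts5, Mmp2, Mmp11 and Timp2). Mmp11 was among the higher members under each of these alternatives other than resolution 0.6. For primordial over preantral cells the count of higher members was 1 without integration, 4 with RPCA, and 2 against the preantral cluster led by Igfbp5 and Rhox8 alone, also added after seeing the data. It was 0 to 2 when 1 library was left out, with 1 (Adamts1) without 2 wk and 2 (Mmp11 and Timp3) without 4 wk. Late theca had 0 to 1 higher members when 1 library was left out, with 1 without 6 wk. Contractile cells had 2 lower members without integration, 2 with mitochondrial and ribosomal protein genes left out of the total, and 1 to 2 with 1 library left out (2 without 2 wk and 2 without 4 wk). Mesenchymal over granulosa had 1 lower member under median-ratio scaling.

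Among the age comparisons, antral cells had 2 higher members at a minimum of 200 UMIs, 2 lower with RPCA and 4 lower without a filter, and could not be compared without integration, which left too few antral cells. Stromal cells had 5 lower members at 200 UMIs and 3 higher without a filter. Late theca had 5 lower members with stricter cell filters and 4 at 200 UMIs. In the cluster led by Cyp11a1 alone, added after seeing the data, it had 2 higher (Adamts1 and Timp3) and 4 lower, and without integration 2 higher (Adamts1 and Adamts4, not Timp3) and 0 lower. There the log2 ratios of Adamts4 (3.41), Adamts10 (0.31), Mmp11 (1.33) and Mmp23 (0.05) changed direction, as did that of Mmp11 (0.10) in the cluster led by Cyp11a1. The causes were not tested. Depth limits the 20 members under 500 UMIs, and levels near those of hematopoietic cells could not be told from free RNA.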

Other observations

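Members that lie side by side in the genome differed in part of their pattern over cell classes. Adamts1 and Adamts5 are neighbours on chromosome 16 on the same strand, and both were highest in pericytes (1086 and 54.8 CPM). In blood endothelial cells Adamts1 was at 874 CPM, its second highest level, while Adamts5 was at 18.3 CPM. In remodeling granulosa cells from 2 to 6 wk Adamts1 was at 93.9, 50.7, 57.0, 83.6 and 46.0 CPM, while Adamts5 went from 4.47 to 152 CPM. Adamts8 and Adamts15 are neighbours on chromosome 9 on opposite strands. Of 319 Adamts8 UMIs, 104 lay in contractile cells, 61 in pericytes and 30 in Col14a1 cells. Of 377 Adamts15 UMIs, 40 lay in contractile cells and 92 in Col14a1 cells.

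Some of the rarer members had their highest level in a small class, although granulosa cells held more of their UMIs. These were chosen after their values were seen. Mmp24 had 49 UMIs, of which 18 lay in the 91 rete ovarii cells (15.9 CPM) and 19 in granulosa cells (0.0642 CPM). Adamts18 had 58 UMIs, of which 11 lay in blood endothelial cells (1.28 CPM) and 31 in granulosa cells (0.105 CPM). Adamts16 had 756 UMIs, of which 58 lay in pericytes (7.95 CPM), 11 in rete ovarii cells (9.72 CPM) and 535 in granulosa cells (1.81 CPM).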
